A study of Mus musculus with 6 samples.

Results

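The genes described here are 8 genes of cholesterol synthesis and its control, chosen by symbol from the 19241 genes in the deposited expression table of mouse interscapular brown adipose tissue: Srebf2, Insig1, Hmgcs1, Idi1, Fdps, Fdft1, Sqle and Cyp51. They comprise the transcription factor SREBP2, the sterol-dependent brake on its activation, and 6 enzymes of the synthesis pathway. None of the 8 encodes an uptake receptor, so uptake is described below from a separate list. RNA of the whole depot was sequenced in bulk from newborn mice, 3 labelled WT and 3 labelled KO. The WT mice carried a floxed Fstl1 gene, and in the KO mice Fstl1, which encodes the secreted glycoprotein follistatin-like 1, was deleted in the Myf5 lineage. Skeletal muscle and many brown adipocytes of this depot descend from that lineage, so Fstl1 in cells of other origin is not targeted. The labels name neither the Cre allele, nor the strain, nor the sex, and do not say that each library is a separate animal, so the p-values measure only the spread between these samples.

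SREBP2 is made as a precursor in the membrane of the endoplasmic reticulum, where the escort protein SCAP binds it. When membrane sterol is low, SCAP carries SREBP2 to the Golgi, where proteases release its transcription factor domain. That domain then enters the nucleus and activates genes for cholesterol synthesis and uptake; INSIG1 holds SCAP back when sterol is plentiful. Brown adipocytes take up lipid from circulating lipoproteins to fuel heat production, and also synthesise sterol themselves.

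Values are FPKM, which divide the fragments of a gene by its transcript length and by the mapped fragments of the library, so levels can be compared between genes per length. Libraries were estimated to hold 13750000 to 15050000 reads each, from the spacing of the low values. A member's value rested on an estimated 128 (Sqle) to 7610 (Hmgcs1) reads. The reads per member were computed with its shortest matched transcript and would be higher with a longer one. Fstl1, the targeted gene, lay at 54.4 to 130 FPKM in WT and at 7.93 to 13.1 FPKM in KO. Ucp1, the uncoupling protein that defines brown fat, lay at 4366 to 6255 FPKM in WT and at 1695 to 3592 FPKM in KO, groups that did not overlap, with KO at 48.9% of WT (limma, log2 fold change −1.08, adjusted p 0.0804). Xist was at 44.8 FPKM or more in each WT library and at 0.92 FPKM or less in each KO library, and the Y-linked Eif2s3y and Ddx3y were at 59.5 FPKM or more in KO and at 0.23 FPKM or less in WT. Sex therefore coincided with genotype, and the 2 cannot be told apart in any difference below. The 8 brown adipocyte markers summed to 20870 to 26336 FPKM in WT and 19914 to 21869 FPKM in KO. Of these, 1 passed the threshold (Plin1, which encodes a lipid droplet coat protein, lower in KO), against 2.21% of all genes tested. In the other 7 marker lists 0 genes passed. Among those lists, 1 of 6 epidermal and 0 of 6 liver markers were expressed enough to be tested. The groups did not overlap for 3 of the 8 brown adipocyte markers, against 24.9% of all genes tested. Each was lower in KO: Ucp1, Plin1 at 37.9% of WT (limma, adjusted p 0.0267) and Prdm16, a regulator of brown fat identity, at 46.0% (0.0519). Of the 8, 5 had a log2 fold change below 0 and 3 above 0. Those above were Cidea (108% of WT), Adipoq (118%) and Ppargc1a (147%). Plin1, Prdm16, Cidea, Adipoq and Ppargc1a are named after their values were seen. The summed level of 8 skeletal muscle markers was 337 FPKM in KO replicate 1 and 1308 to 1912 FPKM in the other 5 libraries. The summed level of 8 macrophage markers was 119 to 176 FPKM in WT and 163 to 226 FPKM in KO. For 6 endothelial markers it was 459 to 602 FPKM in WT and 466 to 520 FPKM in KO, and for 8 Schwann cell markers 73.7 to 78.8 and 59.7 to 85.2 FPKM. The 6 erythroid markers summed to 6450 FPKM in WT replicate 3 and to 1344 to 2195 FPKM elsewhere, and 6 epidermal and 6 liver markers to at most 2.38 and 0.63 FPKM. The part of these cell types in the results was not tested. In such bulk samples, fewer cells of a type and less RNA per cell cannot be told apart.

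The 8 genes did not move as one group. Every KO library exceeded all WT libraries in Insig1 and Fdft1 and lay below all of them in Sqle, and Hmgcs1 had a lower mean in KO, with groups that met at a single point. Of the 8 members, 0 passed an adjusted p of 0.05 (limma over 13331 genes), where 2.21% of all genes tested did (1.21% higher and 1.01% lower in KO). The unadjusted p was under 0.05 for 4 members (Insig1, Fdft1, Sqle and Hmgcs1), against 19.2% of all genes tested. The groups did not overlap for 3 members, 2 higher and 1 lower in KO, against 24.9% of all genes tested (13.6% higher and 11.4% lower). The log2 fold change was above 0 for 3 members and below 0 for 5, with a median of −0.29 beside 0.01 over all genes tested. Taken without sign, the median size of the log2 fold change was 0.52 for the members and 0.20 for all genes tested. These 2 medians cover unlike levels. The members averaged 4.86 (Sqle) to 96.2 (Hmgcs1) FPKM, and all genes tested 0.5 FPKM or more. The log2(FPKM + 1) scale shrinks differences of weakly expressed genes. The members were also chosen with earlier results of these data known. With 8 genes, these counts and medians describe the group and do not set it apart from other genes.

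**Figure D1:**
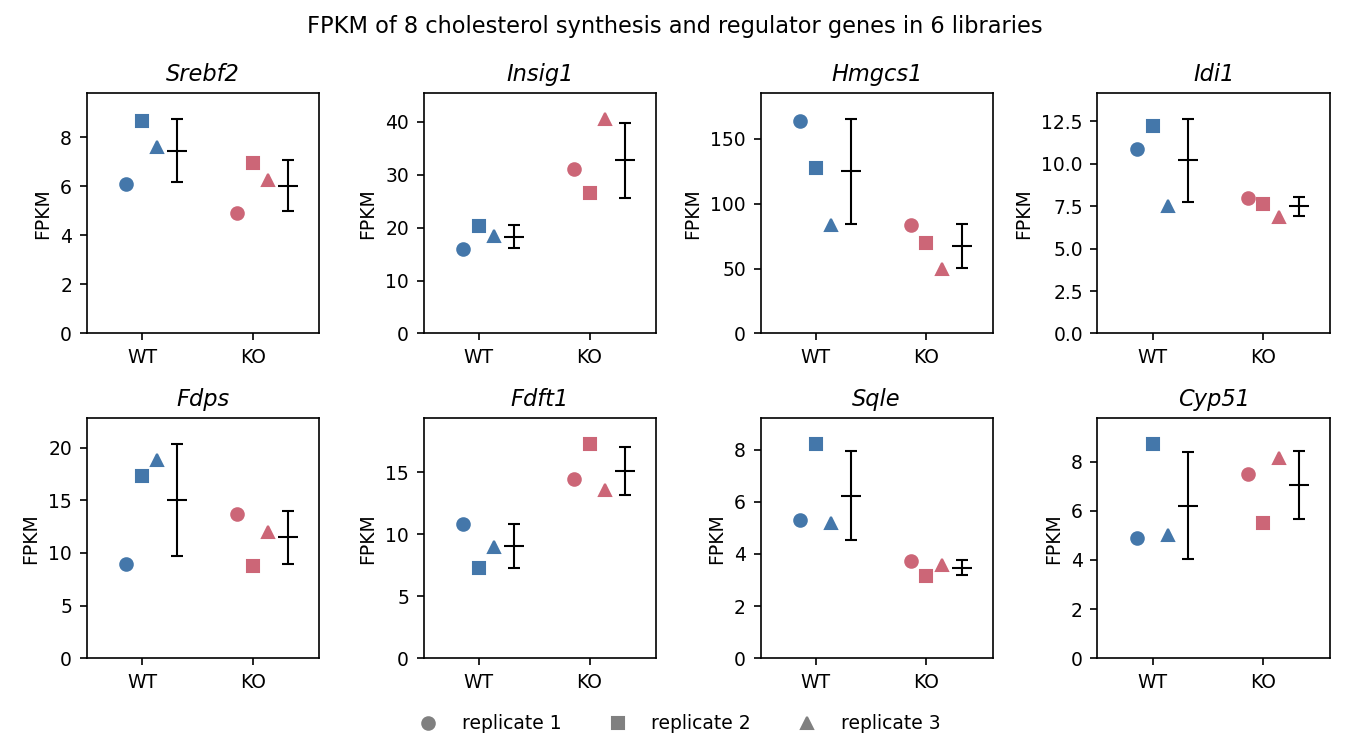
FPKM of each of the 8 genes (y axis, linear, from 0) in the 3 WT and 3 KO libraries (x axis); marker shapes give the replicate number, and black bars give the mean ± SD (n = 3). Insig1 and Fdft1 lie higher, and Sqle lower, throughout KO than in WT, while the groups of the other 5 genes overlap.

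The promoters of 5 of the 8 members were matched in the RefSeq table of GRCm38.p6 (Srebf2, Insig1, Hmgcs1, Idi1 and Cyp51), and not those of Fdps, Fdft1 and Sqle. Sequence upstream of Hmgcs1, Insig1 and Srebf2 is shown. Hmgcs1 and Insig1 were chosen as known SREBP targets with log2 fold changes of opposite sign, neither past the threshold. Srebf2 was chosen because it encodes the factor. The 250 bases before each start were searched on both strands for TCACNCCAC, a form of the sterol regulatory element bound by SREBP, for CCAAT, the box bound by NF-Y, and for GGGCGG, the box bound by Sp1, both of which are known partners of SREBP at such genes. Capitals mark the matches, a match on the opposite strand reading GTGGNGTGA, ATTGG or CCGCCC, and no matches overlapped. The sequence is cut where an annotated exon begins. Each runs 5′ to 3′ on the plus strand, from chr13:119690101-119690350 for Hmgcs1, chr5:28071162-28071362 for Insig1 and chr15:82147019-82147180 for Srebf2.
Hmgcs1: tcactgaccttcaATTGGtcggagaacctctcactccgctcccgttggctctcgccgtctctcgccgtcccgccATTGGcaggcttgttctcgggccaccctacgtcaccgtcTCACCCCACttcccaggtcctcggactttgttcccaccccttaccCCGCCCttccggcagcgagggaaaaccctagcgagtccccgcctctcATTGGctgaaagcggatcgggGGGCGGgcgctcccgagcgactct
Insig1: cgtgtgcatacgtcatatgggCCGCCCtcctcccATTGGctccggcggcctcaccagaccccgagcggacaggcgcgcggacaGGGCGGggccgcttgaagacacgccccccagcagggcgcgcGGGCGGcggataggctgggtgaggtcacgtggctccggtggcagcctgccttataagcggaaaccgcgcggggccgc
Srebf2: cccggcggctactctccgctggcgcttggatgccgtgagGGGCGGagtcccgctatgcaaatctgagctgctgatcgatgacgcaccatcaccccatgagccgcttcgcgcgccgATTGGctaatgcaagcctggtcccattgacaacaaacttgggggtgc
The Hmgcs1 window held 1 match to the sterol element, as TCACCCCAC at 137 to 129 bases before the start, with 3 CCAAT and 2 GGGCGG matches. The Insig1 window held 0 matches to that element, 1 CCAAT and 3 GGGCGG matches, and the Srebf2 window 0, 1 and 4, of which 3 GGGCGG matches lie past the part shown. Of all 32851 promoter windows of the same length, 1.05% held the sterol element in this form, 33.8% CCAAT and 32.7% GGGCGG. The windows of Idi1 and Cyp51 held 0 matches to the sterol element, with 2 and 1 CCAAT matches. Annotated exons covered 250 bases of the Idi1 window (Gm48574, with 105 bases of Idi1 itself) and 49 bases of the Cyp51 window (Cyp51 itself). The 2 Idi1 matches therefore lay in an annotated exon, and the Cyp51 match may do so. A match is a description of these letters. Other forms of the sterol element were not searched. A window without a match therefore says nothing about such forms within it, or about binding elsewhere at the gene.

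Among the regulators, Srebf2 (Entrez gene 20788, chromosome 15, 82147269 to 82205379, GRCm38.p6), which encodes SREBP2, was not resolved between the groups. It was at 6.09, 8.65 and 7.60 FPKM in WT libraries 1 to 3 and 4.89, 6.93 and 6.24 FPKM in KO libraries 1 to 3. The groups overlapped, with KO replicate 2 above WT replicate 1. The means were 7.45 ± 1.29 FPKM in WT and 6.02 ± 1.04 FPKM in KO (SD, n = 3 each). The log2 fold change was −0.27 (95% interval −0.67 to 0.14, limma adjusted p 0.452), so differences within that interval are possible. It was −0.16 when WT replicate 2 was left out and −0.15 when KO replicate 1 was. All log2 fold changes here are differences of log2(FPKM + 1), a scale that shrinks differences of weakly expressed genes.

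Insig1 (231070, chromosome 5, 28071412 to 28078662), the brake that retains SCAP and SREBP in the endoplasmic reticulum and itself a known SREBP target, had the smallest p-value of the 8. It was at 16.03, 20.33 and 18.47 FPKM in WT libraries 1 to 3 and 31.0, 26.6 and 40.5 FPKM in KO libraries 1 to 3. Each KO library exceeded each WT library, and KO replicate 3 was the highest. The mean was 18.3 ± 2.16 FPKM in WT and 32.7 ± 7.10 FPKM in KO (SD, n = 3 each), so KO stood at 179% of WT. The log2 fold change was 0.79 (SE 0.18, 95% interval 0.38 to 1.20) and missed the threshold (limma, adjusted p 0.0624). In an exact permutation test p was 0.1, the smallest that 3 libraries against 3 allow. With genes under a mean of 5 FPKM left out of the test, or with robust eBayes, the same difference passed (limma, adjusted p 0.0454 and 0.0494).

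Hmgcs1 (208715, chromosome 13, 119690351 to 119708260) encodes the cytosolic HMG-CoA synthase, which joins acetyl-CoA to acetoacetyl-CoA at the head of the mevalonate pathway. It was the most abundant member per length in both groups. WT libraries 1 to 3 held 163.7, 127.6 and 83.3 FPKM, and KO libraries 1 to 3 held 83.3, 69.6 and 49.9 FPKM. WT replicate 3 (83.27 FPKM) and KO replicate 1 (83.31 FPKM) coincided, so the groups met without separating. The means were 125 ± 40.3 FPKM in WT and 67.6 ± 16.8 FPKM in KO (SD, n = 3 each), and KO stood at 54.1% of WT. The log2 fold change of −0.85 (SE 0.27, 95% interval −1.46 to −0.25) did not pass (limma, adjusted p 0.132; exact permutation p 0.2).

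Neither of the mevalonate steps that follow was resolved between the groups. Idi1 (319554, chromosome 13, 8885606 to 8892396), the isomerase that interconverts the isoprenoid building blocks, was at 10.9, 12.2 and 7.51 FPKM in WT libraries 1 to 3 and 7.97, 7.64 and 6.86 FPKM in KO libraries 1 to 3. WT replicate 3 lay among the KO libraries, and the log2 fold change was −0.38 (95% interval −0.80 to 0.04, limma adjusted p 0.311), or −0.24 without WT replicate 2. Its near relative Idi2 was listed at 0.06 FPKM or less in every library; it is named for that relation, after its values were seen. Fdps (110196, chromosome 3, 89093588 to 89101967), farnesyl diphosphate synthase, makes the last intermediate shared by sterols and other isoprenoids. It was at 8.98, 17.3 and 18.9 FPKM in WT libraries 1 to 3 and 13.7, 8.77 and 12.0 FPKM in KO libraries 1 to 3. WT replicate 1 was at the level of the lowest KO library, and the WT libraries spread more widely than the groups differed (log2 fold change −0.32, 95% interval −0.93 to 0.30, limma adjusted p 0.561). Single libraries moved that value, to −0.63 without WT replicate 1 (limma, adjusted p 0.112), −0.19 without WT replicate 2, −0.13 without WT replicate 3, and to −0.15 when KO replicate 2 was left out.

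The enzymes on either side of squalene separated the groups in opposite directions, and neither passed the threshold. Fdft1 (14137, chromosome 14, 63145150 to 63181687) encodes squalene synthase, which commits farnesyl diphosphate to sterol synthesis. It was at 10.8, 7.25 and 8.99 FPKM in WT libraries 1 to 3 and 14.5, 17.3 and 13.6 FPKM in KO libraries 1 to 3. All KO libraries lay above all WT libraries, with means of 9.01 ± 1.77 FPKM in WT and 15.1 ± 1.93 FPKM in KO (SD, n = 3 each), or 168% of WT. Its log2 fold change was 0.69 (SE 0.17, 95% interval 0.30 to 1.09) and did not pass (limma, adjusted p 0.0775; exact permutation p 0.1, the smallest possible). In RefSeq, Fdft1 shares 774 bases with Ctsb, the cathepsin B gene on the opposite strand, and without a stated strand setting reads from that stretch cannot be told apart. Ctsb was at 123, 143 and 158 FPKM in WT libraries 1 to 3 and 145, 160 and 121 FPKM in KO libraries 1 to 3, with a log2 fold change of 0.003 (limma, adjusted p 0.996); it is named for this overlap, after its values were seen. In GENCODE, exons of other genes also overlap those of Hmgcs1 (Gm48342, 557 bases), Idi1 (Gm48574, 323 bases), Fdps (Gm43738, 1124 bases) and Cyp51 (Akap9, 166 bases), and in RefSeq the noncoding RNA gene Gm35223 spans Insig1. How the counting treated such reads is not given in the sources used here.

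Sqle (20775, chromosome 15, 59315092 to 59331193) encodes squalene epoxidase, the next and oxygen-requiring step. It was at 5.31, 8.22 and 5.19 FPKM in WT libraries 1 to 3 and 3.71, 3.16 and 3.56 FPKM in KO libraries 1 to 3. All KO libraries lay below all WT libraries; WT replicate 2 stood above the other WT libraries, and the KO libraries lay close together. The means were 6.24 ± 1.72 FPKM in WT and 3.48 ± 0.284 FPKM in KO (SD, n = 3 each), so KO stood at 55.7% of WT. On the log2 scale the fold change was −0.67 (SE 0.19, 95% interval −1.09 to −0.25) and did not pass (limma, adjusted p 0.0985; exact permutation p 0.1, the smallest possible). Without WT replicate 2 it was −0.48 (limma, adjusted p 0.303).

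Cyp51 (13121, chromosome 5, 4080674 to 4104697), which encodes the demethylase that acts on lanosterol, was at 4.90, 8.72 and 5.02 FPKM in WT libraries 1 to 3 and 7.49, 5.50 and 8.16 FPKM in KO libraries 1 to 3. WT replicate 2 was the highest library, and the other WT libraries were the lowest. With a log2 fold change of 0.18 (95% interval −0.33 to 0.70, limma adjusted p 0.709), a difference of either sign remains possible. Leaving out 1 library at a time gave values from 0.06 (without WT replicate 1) to 0.42 (without WT replicate 2), with 0.07 when WT replicate 3 was left out, 0.33 when KO replicate 2 was and 0.08 when KO replicate 3 was.

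**Figure D2:**
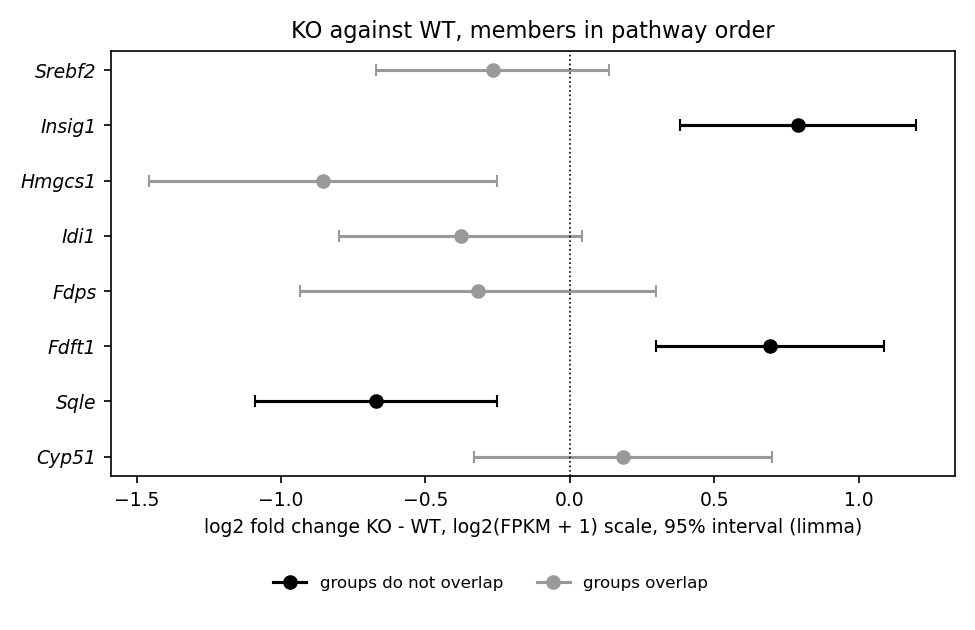
Log2 fold change of KO minus WT for each of the 8 genes in pathway order (points; x axis on the log2(FPKM + 1) scale) with its 95% interval from limma (bars); black marks genes whose groups do not overlap and grey the others. The intervals of Insig1 (0.38 to 1.20) and Fdft1 (0.30 to 1.09) lie above 0 and those of Hmgcs1 (−1.46 to −0.25) and Sqle (−1.09 to −0.25) below 0, without adjustment for the number of genes tested.

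KO replicate 1 was the library with little muscle RNA. Without it, the log2 fold change was 0.82 for Insig1, −1.02 for Hmgcs1, 0.72 for Fdft1 and −0.71 for Sqle, with higher adjusted p-values than with it (limma, 0.141, 0.149, 0.165 and 0.185). For the other members it was −0.15 for Srebf2, −0.42 for Idi1, −0.45 for Fdps and 0.14 for Cyp51. The libraries that were high differed between members within WT. WT replicate 2 was the highest WT library for Srebf2, Insig1, Idi1, Sqle and Cyp51, while WT replicate 1 was the highest for Hmgcs1 and Fdft1 and the lowest for Srebf2, Insig1, Fdps and Cyp51.

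Per length, the order of the mean levels in WT was Hmgcs1 (125 FPKM), Insig1 (18.3), Fdps (15.0), Idi1 (10.2), Fdft1 (9.01), Srebf2 (7.45), Sqle (6.24) and Cyp51 (6.21). Hmgcs1 stood clear of the rest, and below it each gene's range over the WT libraries overlapped that of the next. In KO the order was Hmgcs1 (67.6 FPKM), Insig1 (32.7), Fdft1 (15.1), Fdps (11.5), Idi1 (7.49), Cyp51 (7.05), Srebf2 (6.02) and Sqle (3.48). There Hmgcs1, Insig1 and Sqle each stood clear of their neighbours, and so did Fdps from Idi1, while the ranges of Fdft1 and Fdps, of Idi1 and Cyp51, and of Cyp51 and Srebf2 overlapped. Hmgcs1 made up 72.2%, 60.7% and 53.8% of the summed FPKM of the 8 genes in WT replicates 1, 2 and 3 and 50.02%, 47.8% and 35.4% in KO replicates 1, 2 and 3. The sum of the other 7 was 63.0, 82.7 and 71.6 FPKM in WT and 83.2, 75.9 and 90.9 FPKM in KO.

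Ratios of members within a library do not depend on how the libraries are scaled to each other. The pairs were chosen after the values were seen, so they are described without a test. The FPKM of Insig1 divided by that of Hmgcs1 was 0.098, 0.159 and 0.222 in WT and 0.372, 0.382 and 0.812 in KO replicates 1, 2 and 3, and the mean ratio in KO was 3.27 times that in WT. For Fdft1 over Sqle, neighbouring steps of the pathway, the ratio was 2.03, 0.882 and 1.73 in WT and 3.90, 5.47 and 3.81 in KO replicates 1, 2 and 3, or 2.84 times higher on average in KO. Relative to Srebf2, Insig1 lay at 2.63, 2.35 and 2.43 in WT, a narrow range, and at 6.34, 3.84 and 6.49 in KO. Of 7 ratios computed, KO and WT were separate in 4, these 3 and Fdft1 over Srebf2 (0.838 to 1.77 in WT, 2.17 to 2.96 in KO), which follows in part from choosing members that differed in opposite directions. They overlapped in the other 3: Fdft1 over Fdps (0.419 to 1.20 in WT, 1.05 to 1.97 in KO), Hmgcs1 over Srebf2 (10.96 to 26.9 and 7.99 to 17.04) and Sqle over Srebf2 (0.683 to 0.950 and 0.456 to 0.759).

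**Figure D3:**
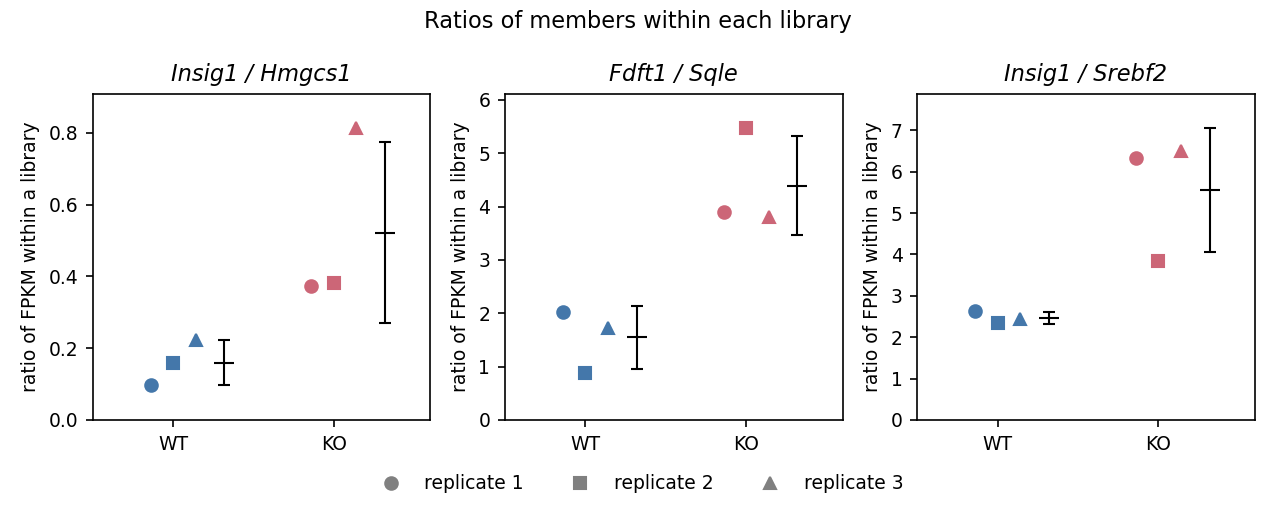
Ratio of the FPKM of 2 members within each library (y axis, linear, from 0) for Insig1 over Hmgcs1, Fdft1 over Sqle and Insig1 over Srebf2, in 3 WT and 3 KO libraries; marker shapes give the replicate number and black bars the mean ± SD (n = 3). KO libraries reach 0.372 to 0.812, 3.81 to 5.47 and 3.84 to 6.49, above the WT libraries in each panel.

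The other genes of the pathway came from lists of known function. Of 71 listed genes, 65 were expressed enough to be tested. Of these, 2 passed the threshold, 1 higher and 1 lower in KO, against 2.21% of all genes tested (1.21% higher and 1.01% lower). Of 5 tested genes of the mevalonate steps other than the members, 0 passed (median log2 fold change −0.09). Acat2, the cytosolic thiolase that makes acetoacetyl-CoA, had a log2 fold change of −0.41 (limma, adjusted p 0.342), and Mvk, mevalonate kinase, one of −0.31 (0.397). Acat2 was at −0.17 without KO replicate 3, and Mvk at −0.49 without WT replicate 1 and −0.16 without WT replicate 3. Of 10 genes of the sterol steps after squalene, 0 passed (median −0.18). Msmo1, the sterol methyl oxidase, lay at 8.22 to 10.4 FPKM in WT and 6.01 to 7.93 FPKM in KO, groups that did not overlap (limma, log2 fold change −0.34, adjusted p 0.299). Lbr, a sterol reductase of the nuclear envelope, lay at 8.81 to 9.83 FPKM in WT and 10.9 to 14.2 FPKM in KO (0.30, 0.332). The log2 fold change of Msmo1 was −0.22 without KO replicate 3, and that of Lbr 0.18 without KO replicate 2.

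Of the 10 genes that process SREBP or sense sterol, 0 passed (median log2 fold change 0.06). Srebf1, which encodes SREBP1, the relative of SREBP2 that mainly drives fatty acid synthesis, was at 34.4, 41.9 and 42.8 FPKM in WT libraries 1 to 3 and 26.0, 25.5 and 11.0 FPKM in KO libraries 1 to 3. The groups did not overlap, and KO replicate 3 was the lowest library (limma, log2 fold change −0.99, adjusted p 0.118). Without that library the value was −0.60 (limma, adjusted p 0.153). Paqr3, a Golgi protein that anchors the SCAP complex, was at 1.61 FPKM or less in every library (0.48, adjusted p 0.196). Of 10 fatty acid synthesis targets of SREBP1, 0 passed and the median was −0.05; the smallest p-values were those of Pnpla3, a lipid droplet acyl hydrolase (limma, log2 fold change −0.65, adjusted p 0.388), and Acaca, acetyl-CoA carboxylase (−0.46, 0.447). Pnpla3 was at −1.12 without WT replicate 1 (limma, adjusted p 0.0573) and −0.25 without WT replicate 2. Acaca moved to −0.74 on omission of WT replicate 1, to −0.75 on that of KO replicate 1 and to −0.23 on that of KO replicate 3.

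In the list of cholesterol uptake and intracellular transport, 1 of 10 tested genes passed, against 2.21% of all genes tested. Mylip, an E3 ubiquitin ligase that marks lipoprotein receptors for degradation and a known target of the oxysterol receptor LXR, rose in KO. It was at 19.24, 21.98 and 17.24 FPKM in WT libraries 1 to 3 and 38.0, 33.0 and 32.9 FPKM in KO libraries 1 to 3, with no overlap (log2 fold change 0.80 with an SE of 0.15; limma, adjusted p 0.0369). It lost the threshold on leaving out WT replicate 2 (limma, adjusted p 0.108), WT replicate 3 (0.109), KO replicate 1 (0.112), KO replicate 2 (0.0853) or KO replicate 3 (0.0855), each in turn. It also missed the threshold without the filter on low values (0.0801) and at a common sum (0.0501). The median log2 fold change of this list was −0.09.

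Of 7 tested genes of cholesterol efflux, oxysterols and LXR, 0 passed, 6 had a log2 fold change above 0, and the median was 0.34. Abcg1, a sterol exporter and LXR target, was at 3.34, 1.82 and 3.67 FPKM in WT libraries 1 to 3 and 6.91, 3.89 and 9.0 FPKM in KO libraries 1 to 3 (limma, log2 fold change 0.92, adjusted p 0.131). Nr1h3, which encodes LXR-alpha, was the exception in direction, at 30.9, 45.3 and 48.5 FPKM in WT libraries 1 to 3 and 29.4, 25.8 and 26.3 FPKM in KO libraries 1 to 3 (−0.57, 0.141). In neither gene did the groups overlap. Without WT replicate 1 the difference in Nr1h3 passed (limma, log2 fold change −0.77, adjusted p 0.0388), and it passed in no other alternative. It was −0.50 without WT replicate 2 (limma, adjusted p 0.401) and −0.45 without WT replicate 3 (0.319). The ABC transporter Abcg1 is also expressed by macrophages, whose summed marker levels are given above. Of 8 macrophage markers, 8 had a log2 fold change above 0 and 0 passed. In 3 of them the groups did not overlap, each higher in KO, against 13.6% of all genes tested. The part of macrophages in these values was not tested.

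Of 3 tested genes of cholesterol ester formation and hydrolysis, 0 passed (median 0.20), with Soat2 and Soat1, the enzymes that esterify cholesterol, at log2 fold changes of 0.24 and 0.20 (limma, adjusted p 0.548 and 0.548). Without WT replicate 3 these were 0.04 and 0.11, without WT replicate 2 they were 0.38 and 0.32, and without KO replicate 2 Soat1 was at 0.13. The non-sterol branches use the same isoprenoid intermediates for dolichol, ubiquinone and protein prenylation. Of 10 genes of these branches, 1 passed, against 2.21% of all genes tested. Dolk, dolichol kinase, fell in KO, from 44.3, 51.7 and 41.2 FPKM in WT libraries 1 to 3 to 27.2, 18.0 and 14.3 FPKM in KO libraries 1 to 3 (log2 fold change −1.20 with an SE of 0.22; limma, adjusted p 0.0384). Its call was lost on leaving out WT replicate 1 (limma, adjusted p 0.0546), WT replicate 2 (0.158), WT replicate 3 (0.107), KO replicate 2 (0.0999) or KO replicate 3 (0.0860), each in turn. It also missed the threshold without the filter on low values (0.0975) and at a common sum (0.0506). The median log2 fold change of this list was −0.01.

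**Figure D4:**
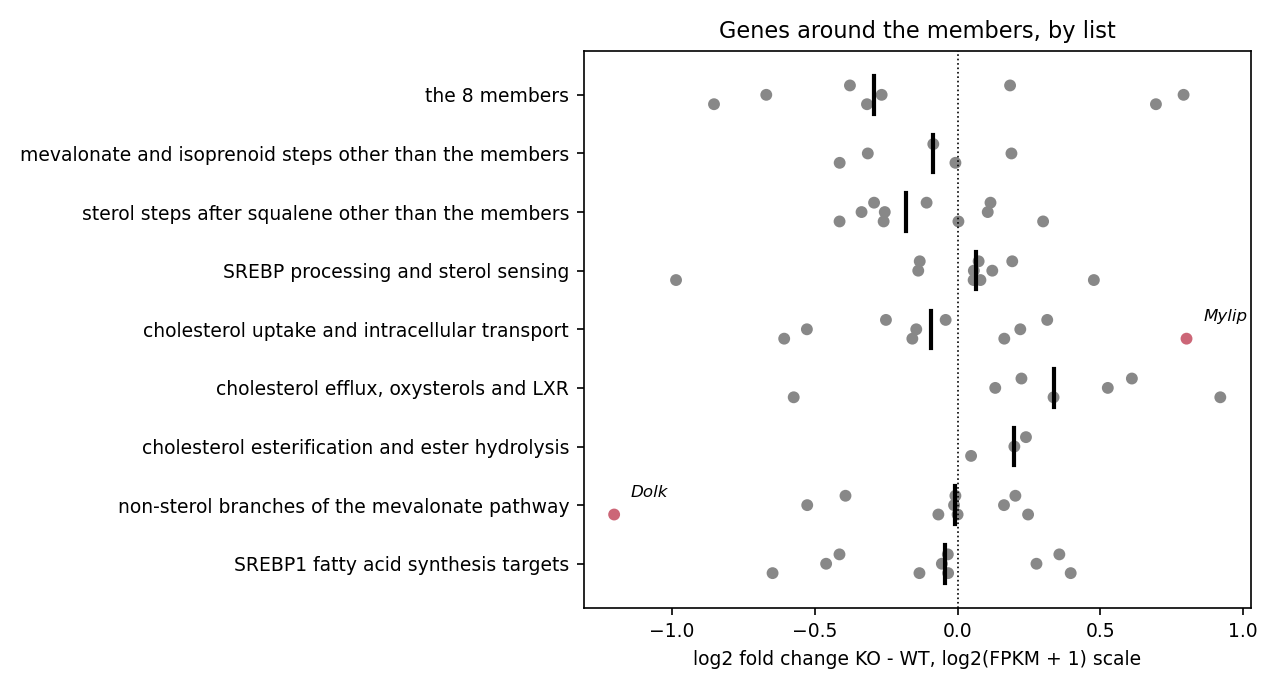
Log2 fold change of KO minus WT (x axis, log2(FPKM + 1) scale) of each tested gene (points) in the 8 members and in 8 lists of related genes (y axis), with each group's median as a black line; genes past an adjusted p of 0.05 in limma are red and named. The members span −0.85 to 0.79 around a median of −0.29, and Mylip and Dolk are the genes past the threshold.

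The mean deviation of the 8 members from their own means (log2 scale) was −0.03, 0.24 and −0.06 in WT and 0.01, −0.12 and −0.05 in KO replicates 1, 2 and 3, so the groups overlapped and WT replicate 2 was the highest. Among 8367 other genes averaging 5 FPKM or more, those most like this profile over the 6 libraries were Brf1 (Pearson r 0.971), Flt1 (0.966), Cd38 (0.958), 0610037L13Rik (0.957) and Tshz2 (0.947). Each of the 5 had its highest value in WT replicate 2 and a log2 fold change between −0.18 and −0.08. The profile averages members that differed in opposite directions. Members ran from r 0.83 (Sqle) to −0.73 (Fdft1) with it, and Insig1 was also below 0 (−0.21). The 5 genes were picked for the highest r of 8367 over 6 libraries, so high values follow in part from that choice. Their r values describe 6 libraries that share the members' differences.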

How the data were processed

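RNA of the whole interscapular brown fat depot was measured by bulk RNA-seq in 3 WT and 3 KO libraries, grouped by title. The deposited values are FPKM, per the file headers, rounded to 2 decimals by the authors. The submitters' processing notes name HISAT2 2.0.4, Bowtie2 2.2.5, DESeq2 and the mm10 build without their roles; counting tool, strand and filters are not given in the sources used here. All 6 value columns were used, and no count model was fitted.

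The 8 members are the table's rows with those symbols. The members and the lists (8 pathway lists of 71 genes, 8 marker lists of 56 genes) were chosen with earlier results of these data known. Values were taken as log2(FPKM + 1), genes averaging 0.5 FPKM or more were tested with limma 3.58.1 in R 4.3.3 (lmFit, eBayes with trend, no covariates), with Benjamini-Hochberg adjustment over all 13331 genes tested, with a threshold of 0.05. The fit was tested on simulated data. Exact permutation tests of FPKM were two-sided. The genes named are all members, the label checks Fstl1, Ucp1, Xist, Eif2s3y and Ddx3y, the genes of each pathway list past the threshold (or the 2 with the smallest p), and the 5 genes most like the members' mean profile. Names beyond this rule are Plin1, Prdm16, Cidea, Adipoq, Ppargc1a, Idi2, Ctsb and the other genes that overlap members. There were 16 alternatives: 2 smaller pseudocounts (0.1 and 0.01), testing every gene, a filter at 5 FPKM, quantile, common-sum and median-of-ratios scaling, eBayes without trend, robust eBayes, the replicate block and leaving out each library.

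The read depth is not stated. Among genes with 1 transcript of 500 to 1300 nt, 79.3% to 83.4% of 463 to 487 low values per library came to whole reads, within 0.2 of a read, at the best-matching depth (length offset 50 nt), where evenly spread values would give 40.0%. That depth was 13750000 to 15050000 reads per library. Positions and promoters came from RefSeq tables of GRCm38.p6, the assembly that mm10 names, and annotated exons from GENCODE vM21.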

Additional observations from a re-analysis of the deposited data

How the results depend on the processing

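The number of genes past the threshold among all genes was 295 (134 lower, 161 higher). It was 35 without the filter on low values, 191 at a common sum and 167 with the replicate block, and leaving out each library gave 31 to 370. Of the 8 members, 0 passed at the settings of the report, and 1 passed with a filter at a mean of 5 FPKM (Insig1, limma, adjusted p 0.0454), 1 with robust eBayes (Insig1, 0.0494) and 1 with the replicate block (Hmgcs1, 0.0498). No other alternative gave a member past the threshold, including each of those that left out a library. The adjusted p-values (limma) over the 16 alternatives ran from 0.0454 to 0.176 for Insig1, from 0.0503 to 0.281 for Fdft1, from 0.0498 to 0.358 for Hmgcs1 and, over the 15 in which it was tested, from 0.07 to 0.303 for Sqle. The filter at 5 FPKM tests fewer genes by construction and drops Sqle; for the other shifts the cause was not tested. All 8 members kept the direction of their log2 fold change in the alternatives run, and their median lay between −0.36 and −0.18. The number of members at the smallest exact p was 3. It was 4 with quantile normalization, with median-of-ratios scaling and without WT replicate 3, and 2 without KO replicate 2.

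Both groups use the replicate numbers 1 to 3, and the labels do not say what a number marks. Over genes, the correlation between a WT library's deviation from the WT mean and that of the KO library with its number was 0.068, 0.043 and 0.043, and the samples were not treated as pairs. Each library correlated best with its own number in the other group, which comes from the data and not from the design. These values are small, and WT replicate 2 with KO replicate 3 gave 0.029. Deviations from a group mean sum to 0, so some positive values arise by construction. Whether the numbers mark pairs cannot be told from them. With the block, Mylip (adjusted p 0.0603) did not pass and Abcg1 (0.0451) did. Estimated reads behind a member's value were lowest for Sqle, at 128; the part of depth in the members' spread was not tested.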
